A study of Homo sapiens with 18 samples.

Results

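The genes described here are 49 lineage genes of other tissues: genes known for 1 organ or blood lineage and listed because U2OS cells, a human osteosarcoma line, belong to none of them. They were taken from a fixed list of gene names among 19970 protein-coding genes of the RefSeq table (hg38, chromosomes 1 to 22 and X), and all 49 were found there. A peak was counted for a gene when its summit lay inside the gene or within 2500 bp of its outer ends. By tissue the list holds 12 genes of liver, 8 of blood, 4 of pancreatic islet, 4 of lung, 7 of muscle, 6 of the nervous system, 6 of skin and gut epithelium and 2 of kidney. No expression was measured in the series, so the label of the list was not checked against RNA.

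The series mapped MAX in U2OS cells labelled MYC-KO, which carry a Tet-On copy of MYC as wild type (WT) or as a mutant named 3A or 7A. Cells received doxycycline (Dox) at 1 µg/ml or PBS for 24 h, and NIH3T3 mouse cells were added at 10% as reference chromatin. The labels describe 12 MAX immunoprecipitations in 6 groups of 2 and 6 inputs, and do not say whether each line is 1 clone. Their antibody field gives MAX and their protocol an anti-FLAG antibody, and the former was followed. The data are 3 peak lists, 1 for each MYC form, with 34622 peaks for WT, 27294 for 3A and 25159 for 7A. No list tells Dox from PBS or replicate from replicate, and the sources used here do not give the control behind the fold enrichment. Peak names in each list join a plus and a minus label, as in WT+_WT-_MAX. Whether Dox and PBS libraries were pooled or set against each other is not given there. Each value below therefore belongs to 1 list, has no replicate check and carries no test, and a difference between lists is not shown to be a difference between MYC forms.

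MAX is a basic helix-loop-helix leucine zipper protein that binds DNA as a dimer with MYC, with the MXD proteins or with itself. Its preferred site is the E-box CACGTG, and it is usually found at CpG-rich promoters of active genes. Lineage genes such as those of serum proteins, globins or sarcomere proteins are mostly silent outside their own tissue, and many have promoters poor in CpG, while many neuronal genes start in CpG islands. Strength is given here as the fold enrichment at the summit in the authors' lists, which is on the scale of its own list, and as the position of a peak in its list, the top percent counted from the strongest by fold enrichment.

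Most of the lineage genes had no MAX peak. In the WT list 19 of 49 had one (38.8%), against 70.8% of all protein-coding genes. In the 3A list it was 20 of 49 (40.8%, background 67.7%) and in the 7A list 17 of 49 (34.7%, background 66.6%). A peak within 1000 bp of an outer gene end was found for 12 members in WT (background 57.4%), 14 in 3A (background 55.5%) and 11 in 7A (background 54.7%). All 6 nervous system genes and both kidney genes had a peak in every list. The liver had 2 genes with a peak of 12 in each list, muscle 2 of 7 in WT and 3A but 1 in 7A, and the islet 1 of 4 in 3A and none elsewhere. The groups also differed in gene length. Their medians were 38.8 kb for the nervous system, 25.2 kb for kidney, 18.7 kb for muscle, 9.17 kb for liver and 4.67 kb for the islet. Neither kidney gene had a peak within 1000 bp of an outer end.

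**Figure D1:**
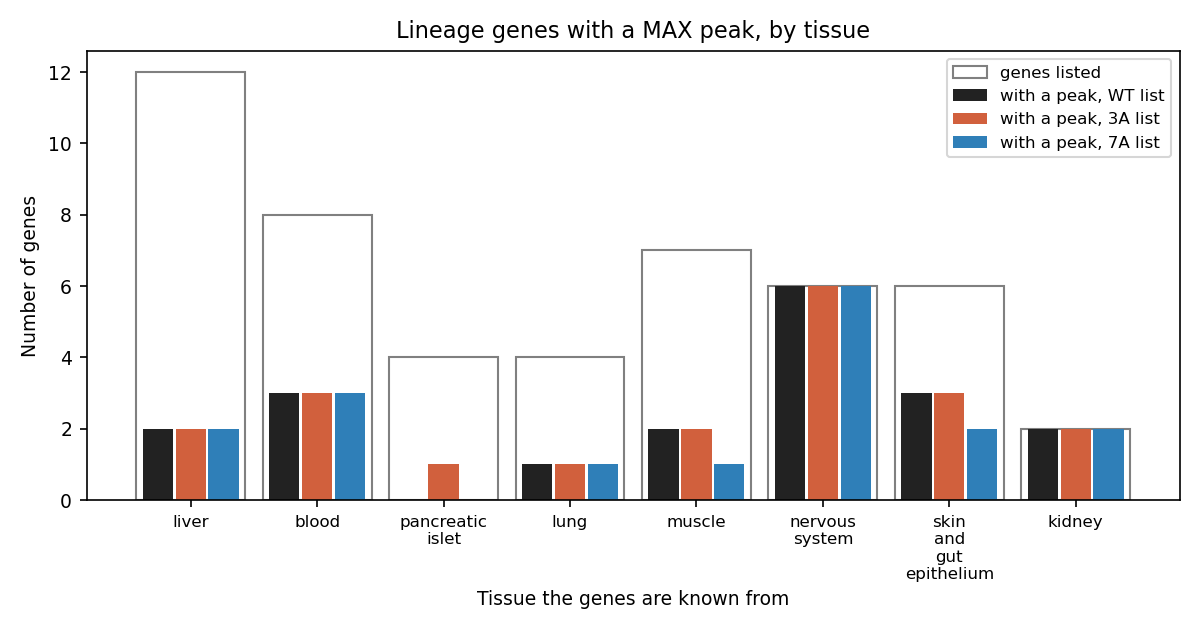
Number of lineage genes (vertical axis) in each tissue (horizontal axis); open bars are the genes listed and filled bars those with a MAX peak in the WT, 3A and 7A lists. The nervous system and kidney bars are filled to the top, while 2 of 12 liver genes have a peak in each list.

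The members were shorter than most genes, and short genes had peaks less often. Their median length was 11.4 kb, against 24.2 kb for all protein-coding genes. Among members under 10 kb, 5 of 24 had a WT peak (20.8%), against 48.8% of all genes of that length. From 10 to 50 kb it was 10 of 20 against 73.7%, and at 50 kb and over 4 of 5 (80.0%) against 86.9%. The gap between members and all genes was thus narrowest for the longest genes, a class of 5 members. In 3A the members' shares in these classes were 33.3%, 40.0% and 80.0%, against 46.2%, 70.9% and 83.1%, and in 7A 16.7%, 45.0% and 80.0%, against 45.1%, 69.9% and 81.9%. Counted per Mb of gene and window, the WT list had 27.5 member peaks, against 19.0 over all protein-coding genes. MBP alone held 10 of the 39 WT peaks, and without it the value was 23.04. These values are not matched for gene length. Over all genes 47.3% of the WT peaks counted lay within 1000 bp of a gene end, against 38.5% of the members' WT peaks. Whether peaks at gene ends raised the members' value was not tested. Under 10 kb and from 10 to 50 kb, members had a peak less often than all genes in every list. At 50 kb and over, 4 of 5 members had one in each list, near the share of all genes.

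The strongest WT peak of the list lay at the start of ACTN2, an alpha-actinin of the sarcomere Z-disc in heart and skeletal muscle. It spanned chromosome 1, 236685994 to 236687197 (hg38), with its summit 121 bp before the outer end of the gene. The WT fold enrichment was 84.7, against 49.1 for the 3A peak and 66.6 for the 7A peak. In each list this was a leading peak, at the top 0.670% of WT, 1.78% of 3A and 0.950% of 7A. No other protein-coding gene end lay within 1000 bp of it.

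The RefSeq promoter of ACTN2 (GRCh38.p14, 250 bases before to 50 after the start) contained the summit in all 3 lists, as did that of SYN1. These 2 are printed with CD8A, where the summit of a weak WT peak fell in the window of an inner start, and with CKM and CD79A, which had no peak in any list and come from the tissues of ACTN2 and CD8A. Capitals mark CACGTG, which reads the same on both strands, and CACGCG or its complement CGCGTG; overlapping matches were counted separately. The windows are chr1:236686249-236686548 (plus strand) for ACTN2, chrX:47619808-47620107 (minus) for SYN1, chr2:86790864-86791163 (minus) for CD8A, chr19:45322826-45323125 (minus) for CKM and chr19:41877029-41877328 (plus) for CD79A.
ACTN2: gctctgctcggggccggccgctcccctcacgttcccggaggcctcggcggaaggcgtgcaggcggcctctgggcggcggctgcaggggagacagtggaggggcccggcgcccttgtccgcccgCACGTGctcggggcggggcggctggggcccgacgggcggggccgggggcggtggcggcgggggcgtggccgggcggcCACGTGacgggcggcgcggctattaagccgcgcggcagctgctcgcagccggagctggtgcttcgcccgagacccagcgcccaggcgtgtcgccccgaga
SYN1: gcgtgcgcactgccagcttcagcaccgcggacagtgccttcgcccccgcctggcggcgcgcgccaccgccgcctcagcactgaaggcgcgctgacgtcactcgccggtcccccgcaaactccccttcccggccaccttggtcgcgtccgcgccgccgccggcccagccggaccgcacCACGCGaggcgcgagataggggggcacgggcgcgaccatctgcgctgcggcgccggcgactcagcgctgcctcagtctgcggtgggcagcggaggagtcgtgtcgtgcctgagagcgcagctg
CD8A: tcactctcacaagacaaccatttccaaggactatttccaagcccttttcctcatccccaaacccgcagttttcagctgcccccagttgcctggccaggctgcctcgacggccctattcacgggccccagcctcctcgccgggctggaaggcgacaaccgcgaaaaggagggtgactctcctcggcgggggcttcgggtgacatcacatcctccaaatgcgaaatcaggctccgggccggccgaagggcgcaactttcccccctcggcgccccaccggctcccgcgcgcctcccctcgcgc
CKM: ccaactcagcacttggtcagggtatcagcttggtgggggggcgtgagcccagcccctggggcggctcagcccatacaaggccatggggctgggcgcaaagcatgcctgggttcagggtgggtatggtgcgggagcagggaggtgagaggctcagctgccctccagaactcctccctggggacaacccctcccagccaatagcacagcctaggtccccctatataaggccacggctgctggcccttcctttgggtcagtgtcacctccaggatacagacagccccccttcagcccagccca
CD79A: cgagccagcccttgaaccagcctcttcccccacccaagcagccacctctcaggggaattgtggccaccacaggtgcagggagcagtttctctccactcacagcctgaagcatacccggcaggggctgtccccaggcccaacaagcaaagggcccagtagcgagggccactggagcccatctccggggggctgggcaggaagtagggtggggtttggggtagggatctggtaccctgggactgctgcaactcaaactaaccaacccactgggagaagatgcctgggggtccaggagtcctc

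ACTN2 held 2 copies of CACGTG, starting at bases 124 and 201 of the window, and the WT summit was at base 130. CACGTG occurred in 8.34% of 22139 promoters of protein-coding genes, and CACGCG on either strand in 14.2%. SYN1 held CACGCG at base 178, with the WT summit at base 65, and no CACGTG. Neither motif was found in the windows of CD8A, CKM or CD79A. ACTN2 and SYN1 were rich in CpG, with 45 and 46 CpG in 300 bases and ratios of observed to expected CpG of 0.948 and 1.09, against a median of 21 and 0.738 over all these promoters. CKM had 5 and CD79A 4, with ratios of 0.161 and 0.134, and CD8A lay between at 25 and 0.838. Other windows went the other way: that of MBP held 44 CpG (ratio 0.910) and 2 copies of CACGCG and no summit in any list, and that of TNNI3, a gene with no peak, held 1. The windows of UMOD and NPHS1 had 2 and 4 CpG and held no summit in any list. The peaks these genes had in every list lay in the gene body, outside the windows. Promoter entries matched 29 of the 49 members (59.2%), so these windows are examples and CpG was not summarised over members with and without peaks.

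In muscle, MYOD1, the transcription factor that commits cells to the skeletal muscle lineage, had a weak peak inside the gene, 798 bp from an outer end in WT, with fold enrichments of 6.49 there and 8.77 in 3A. These stood at the top 79.3% of WT and 66.2% of 3A, and there was no peak in 7A, where the nearest summit was 21.7 kb away. The cardiac myosin genes MYH6 and MYH7, the cardiac troponin genes TNNT2 and TNNI3, and CKM, the muscle creatine kinase, had none in any list.

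The nervous system group held several strong peaks at gene ends. SNAP25, a SNARE protein of synaptic vesicle fusion, had a WT fold enrichment of 40.1 at its strongest peak, and 75.1 in 3A and 51.7 in 7A (chromosome 20, 10217177 to 10219057 in the WT list; summit 674 bp outside the gene). That was the top 5.31% of WT, 0.546% of 3A and 1.89% of 7A, so that SNAP25 stood nearer the front of both mutant lists than of the WT list. A further peak 818 bp inside the gene had 21.0, 13.6 and 18.5. A peak beyond the other end was in WT (5.34) and 3A (7.53) and not in 7A.

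GRIN1, the obligatory subunit of NMDA-type glutamate receptors, had its strongest peak 143 bp inside the gene (chromosome 9, 137138863 to 137139604), with 40.8 in the WT list, 20.7 in 3A and 24.0 in 7A. Its positions were the top 5.10%, 16.5% and 12.5%. The other end carried a peak in every list (16.1, 7.23 and 9.11), which also lay within 1000 bp of an end of LRRC26. A body peak of 11.6 was found in WT alone.

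SYN1, a synapsin that coats synaptic vesicles, had its promoter peak at 30.5 in WT, 18.2 in 3A and 11.6 in 7A (chromosome X, 47619798 to 47620283). In 3A the strongest SYN1 peak was instead the one at an end of TIMP1, a gene inside SYN1, at 18.7; the same peak had 14.0 in WT and 10.2 in 7A. By its strongest peak SYN1 stood at the top 9.73% of WT, 20.2% of 3A and 47.1% of 7A. A body peak of 8.39 was found in WT alone.

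OLIG2, a helix-loop-helix factor of oligodendrocyte and motor neuron precursors, stood furthest apart between the lists when ranked by fold enrichment. Its single peak, 365 bp inside the gene (chromosome 21, 33025151 to 33026751), had 44.0 in WT, 8.24 in 3A and 11.2 in 7A. It was thus at the top 4.27% of WT, 70.2% of 3A and 49.3% of 7A. The peak was of similar width in each list, 1601, 1467 and 1407 bp. Of 3254 genes with a peak in all lists and a strongest WT peak in the top 10%, 70 (2.15%) stood in the weaker part of the 3A list, beyond the top 50%. In 7A it was 104 of them (3.20%); OLIG2, just short of that line, was not among these. Ranked by −log10 q in place of fold enrichment, OLIG2 was at 4.49%, 48.8% and 44.4%. By that measure SFTPC differed more from WT, by 47.8 points in 7A against 44.3 for OLIG2 in 3A.

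The glial genes GFAP, the intermediate filament of astrocytes, and MBP, the myelin basic protein, had weaker peaks away from their ends. GFAP had its strongest peak outside the gene, at 8.30 in WT, 13.1 in 3A and 5.71 in 7A, or the top 65.2%, 38.6% and 90.3%. A second GFAP peak, at the ends of DNAAF19 and FAM187A, was in WT (4.86) and 3A (5.19). MBP carried 10 WT peaks and 7 in each mutant list, all inside the gene, with WT fold enrichments from 3.19 to 18.3. Its strongest peak was a different one in WT (18.3, 5.49 kb from the outer end) than in 3A (11.2) and 7A (11.0), where it lay 76.3 kb from the other end. At the site leading in WT, the mutant lists had 8.41 and 5.43.

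**Figure D2:**
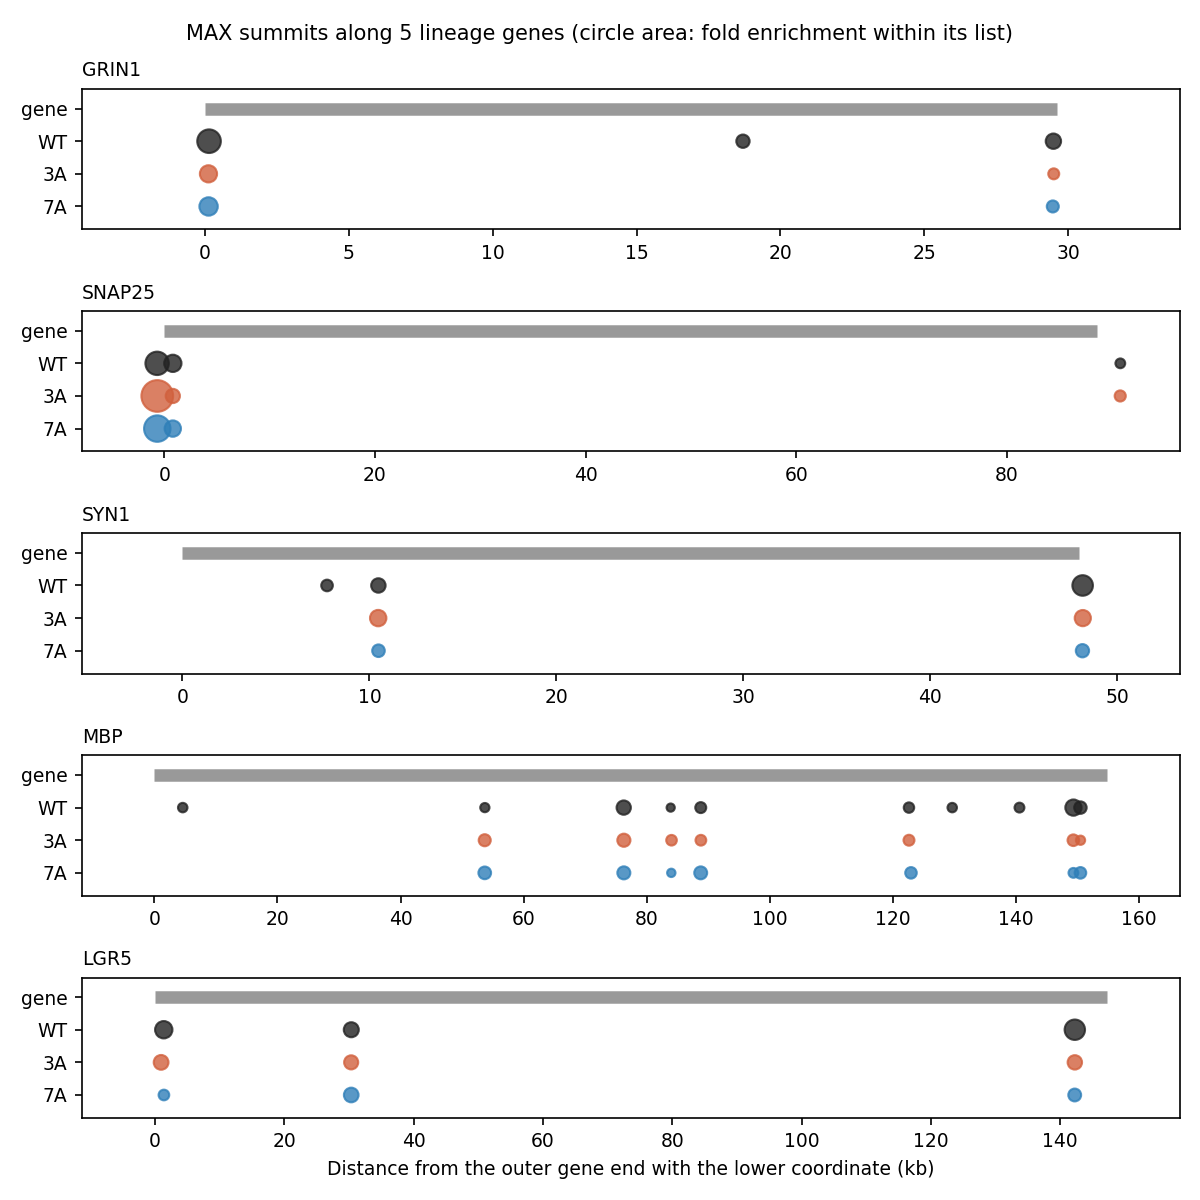
Position of each MAX summit (circles) along GRIN1, SNAP25, SYN1, MBP and LGR5, as the distance in kb from the gene end with the lower coordinate; grey bars are the genes, rows are the WT, 3A and 7A lists, and circle area follows the fold enrichment within its list. GRIN1, SNAP25 and SYN1 have their largest WT circles at a gene end, and the 10 WT circles of MBP are spread through the gene.

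In blood, 3 T cell genes had peaks in every list and the other 5 genes had none. CD8A, a co-receptor of cytotoxic T cells, had the strongest, at 32.1 in WT, 30.1 in 3A and 26.04 in 7A (chromosome 2, 86807327 to 86808824), inside the gene 750 bp from its outer start. It stood at the top 8.67%, 7.22% and 10.3%. A second, inner peak had 3.70, 10.0 and 8.63. CD3E, a chain of the T cell receptor complex, had a peak 619 bp outside an outer end, at 12.6 in WT, 18.3 in 3A and 24.8 in 7A. Its positions were the top 40.6%, 21.1% and 11.6%, nearer the front in both mutant lists than in WT. The CD4 peak (4.89, 8.72 and 8.15) also lay at an end of GPR162, and CD4 had no other. The globin genes HBB and HBA1, the B cell genes MS4A1 and CD79A, and PTPRC, the leukocyte phosphatase CD45, had none. HBA1 has a near-identical neighbour, HBA2, and SFTPA1 has SFTPA2, and the sources used here do not give how reads that fit both copies were treated.

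In the liver group, APOA1, the main protein of high-density lipoprotein, had 35.5 in WT, 21.4 in 3A and 20.7 in 7A (chromosome 11, 116835727 to 116836264), 304 bp inside an outer end. It stood at the top 6.998%, 15.5% and 17.2%. CYP2E1, an ethanol-oxidising cytochrome, had a weak peak 1601 bp inside its start in WT (6.96) and 7A (6.57) and none in 3A. APOA2, a second lipoprotein gene, had a peak in 3A alone (5.59), 2316 bp outside its start and at an end of TOMM40L. It overlapped a WT peak of 5.89 whose summit, at 2731 bp, lay past the limit. The other 9, namely ALB, APOB, APOC3, TTR, the fibrinogen genes FGA, FGB and FGG, SERPINA1 and CYP3A4, had none in any list.

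In lung, SFTPC, the surfactant protein of alveolar type II cells, had a peak at each side, and both lay at an end of another gene. The one at BMP1 had 22.4 in WT, 16.3 in 3A and 7.74 in 7A, or the top 17.3%, 26.3% and 74.3%. The one at LGI3 was in WT (8.54) and 3A (5.86) and not in 7A. SFTPA1, SFTPB and SCGB1A1 had none. Of the islet hormones INS, GCG and SST and the factor PAX4, SST (somatostatin) had a peak in 3A alone, at 8.13 or the top 71.1%, inside the gene 552 bp from its start.

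In skin and gut epithelium, CDX2, the homeobox factor of the intestine, had a peak 472 bp inside its start (chromosome 13, 27968031 to 27969200), at 23.4 in WT, 9.50 in 3A and 28.3 in 7A. It stood at the top 16.2% of WT, 60.7% of 3A and 8.53% of 7A. The order of WT and 7A turned when −log10 q was used, at 27.6% and 35.4%, with 3A at 71.1%. LGR5, a receptor of intestinal stem cells, had 3 peaks in every list. The one near 1 end of the gene, 1334 bp inside it in WT, had 21.2 in WT, 14.8 in 3A and 6.73 in 7A. An inner one had 15.3, 13.3 and 14.5, and the one 4.90 kb from the other end 30.0, 13.95 and 10.6. VIL1, the brush border protein villin, had a body peak in WT alone (7.23, top 73.3%). KRT5, a basal keratin, had one in 3A alone (3.79, top 99.2%), 1604 bp outside its start. KRT14 and KRT20 had none.

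In kidney, UMOD, which encodes uromodulin, had a body peak (chromosome 16, 20348376 to 20349241) 7.65 kb from its nearer outer end. Its fold enrichment was 28.4 in the WT list, 10.3 in the 3A list and 24.35 in the 7A list, or the top 11.2%, 54.9% and 12.0%. NPHS1, the slit diaphragm protein nephrin, had a body peak at 12.0, 9.16 and 11.4, and a further one in 3A (6.72) and 7A (4.61) with no WT partner.

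**Figure D3:**
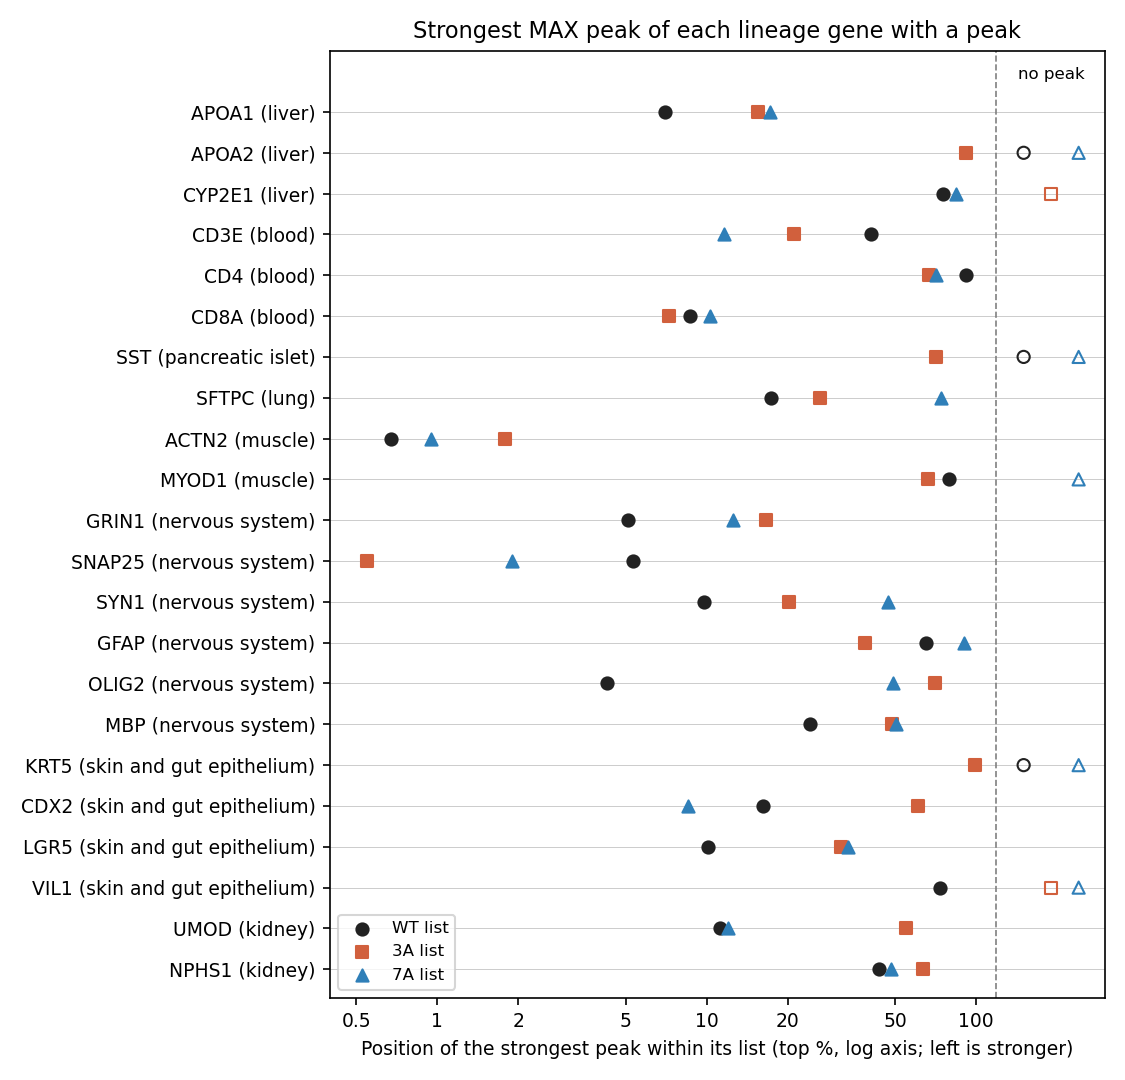
Position of the strongest MAX peak of each of the 22 genes with a peak, as the top percent of its list (horizontal log axis, stronger to the left); filled symbols are the WT, 3A and 7A lists and open symbols on the right mark lists with no peak. ACTN2 and SNAP25 are near the front of every list, and OLIG2 spans from 4.27% in WT to 70.2% in 3A.

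The lists were next compared by presence. A peak in all 3 lists was found at 16 of 49 members (32.7%), against 65.7% of all protein-coding genes. Of the 19 members with a WT peak, 17 also had one in 3A (89.5%, background 94.9%) and 17 in 7A (89.5%, background 93.6%). Those without were CYP2E1 and VIL1 in 3A and MYOD1 and VIL1 in 7A, with WT peaks between the top 73.3% and 79.3%. Of the 30 members without a WT peak, 3 had one in 3A (APOA2, SST and KRT5, 10.0%, background 1.82%) and 0 in 7A (background 1.23%). All 3 were in the weaker part of the 3A list.

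Peak by peak the members were near the background. Of 39 WT peaks of members, 32 were overlapped by a 3A peak (82.1%, background 79.0%) and 29 by a 7A peak (74.4%, background 75.5%). In the other direction a WT peak overlapped 33 of 36 member peaks in 3A (91.7%, background 96.3%) and 29 of 30 in 7A (96.7%, background 97.3%). The WT peaks with no partner in either mutant list were 3 of MBP, 1 each of GRIN1, SYN1 and VIL1, at 4.89 to 11.6. Peaks within 1000 bp of an outer end of their gene made up 15 of the 39 in WT (38.5%, against 47.3% for all genes), 17 of 36 in 3A (47.2%, against 53.3%) and 13 of 30 in 7A (43.3%, against 55.2%). Peaks at an end of another protein-coding gene numbered 6 in WT (15.4%, against 17.8%), 7 in 3A (19.4%, against 20.3%) and 4 in 7A (13.3%, against 21.2%). No peak was counted for more than 1 member.

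By position, the median of the strongest peaks was the top 16.2% over the 19 members in WT, against 25.3% over all genes with a WT peak. In 3A it was 43.6% over 20 members against 29.0%, and in 7A 33.3% over 17 against 31.5%. These medians are over different genes, and over gene-end peaks alone they were 9.20% in WT, 23.9% in 3A and 12.5% in 7A. Of the 16 members with a peak in every list, 11 stood further back in 3A than in WT and 12 further back in 7A. Among all 13111 such genes the shares were 58.6% and 64.2%. The median difference from WT was 9.74 points in 3A and 6.01 in 7A for the members, and 2.62 and 4.68 over all such genes. These differences are not matched for WT position. Genes from the top 10% to 20% of WT had a median of 20.8% in 3A and 22.6% in 7A. The strongest peak was also another site than in WT for MBP and LGR5 in both mutant lists and for SYN1 in 3A. OLIG2 differed by 65.9 points in 3A, and 0.450% of all such genes differed by as much or more in that direction. CDX2 differed by 44.5 points in 3A (3.68% of genes) and UMOD by 43.7 (3.91%), and SFTPC by 56.95 in 7A (1.24%). In the opposite direction CD3E differed by -29.0 points in 7A, and 3.45% of genes differed by as much or more that way; by −log10 q the difference was -6.52 points. Ranked by −log10 q the differences in the mutant list named were 44.3 points for OLIG2, 43.5 for CDX2, 29.99 for UMOD and 47.8 for SFTPC. Lists of unequal length and unknown depth give ranks that cannot be read as a change in binding, and the order of WT and a mutant turned under −log10 q for CD8A in 3A and CDX2 in 7A.

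The 27 members with no peak in any list lay a median of 33.6 kb from the nearest WT summit, against 47.8 kb for all 5698 protein-coding genes with no peak. In 3A the median was 38.0 kb against 59.7 kb, and in 7A 41.15 kb against 62.1 kb, so the members were by median nearer to a summit than such genes at large. The WT distance exceeded 10 kb for 21 of the 27 (77.8%, against 83.5%). HBB, the adult beta globin, was the furthest in WT at 369.1 kb, followed by KRT20 at 227.5 kb and CYP3A4 at 135.4 kb. PTPRC had a WT summit 6.11 kb away, while the nearest in the mutant lists was 481.8 kb away. INS likewise had one at 5.14 kb in WT, 25.7 kb in 3A and 14.6 kb in 7A. These WT peaks near PTPRC and INS had fold enrichments of 7.38 and 4.58, below the WT list median of 10.7.

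Just outside the limit of 2500 bp in WT were APOA2 at 2731 bp, CD79A at 2910 bp, TNNI3 at 2972 bp and APOC3 at 2983 bp. The summit near APOC3 was that of the APOA1 peak, at 35.5. Just inside was the APOA2 peak in 3A at 2316 bp. With the window widened to 10000 bp, 27 members had a WT peak (55.1%, background 75.7%), 25 a 3A peak (51.0%, background 72.5%) and 21 a 7A peak (42.9%, background 71.5%).

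**Figure D4:**
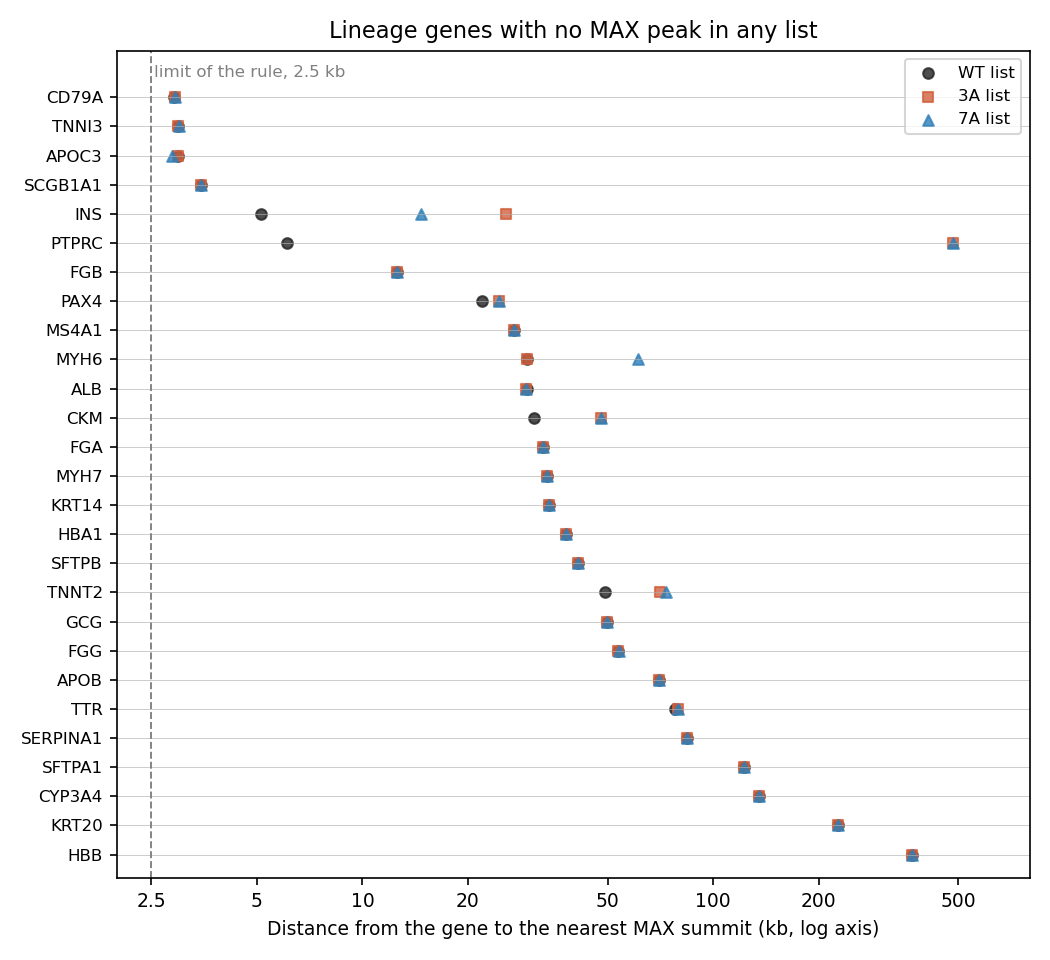
Distance in kb (log axis) from each of the 27 genes with no peak to the nearest MAX summit in the WT, 3A and 7A lists; the dashed line is the 2.5 kb limit. In WT the points run from 2.91 kb at CD79A to 369.1 kb at HBB. PTPRC is near a summit in the WT list (fold enrichment 7.38) and not in the mutant lists.

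A second list of 69 genes of the same tissues had counts like those of the members, with a WT peak at 30 (43.5%), a 3A peak at 25 (36.2%) and a 7A peak at 22 (31.9%). Its nervous system genes had a WT peak in 8 of 10 cases and its kidney genes in 5 of 6. For liver it was 4 of 12, and for skin and gut 2 of 10 in WT and none in 3A or 7A. Muscle had 4 of 10 in WT (members 2 of 7) and lung 3 of 5 (members 1 of 4). The islet had 2 of 5 in WT (members 0 of 4) and blood 2 of 11 (members 3 of 8). The 4 strongest in WT were RBFOX3, a neuronal splicing factor, at 78.4, NKX6-1, a beta cell factor, at 56.2, SYP, a synaptic vesicle protein, at 34.5 and TNNC1, a troponin of heart and slow muscle, at 31.3. The SYP and TNNC1 peaks also lay at ends of PRICKLE3 and NISCH. Of 19 bone lineage genes, the lineage nearest to an osteosarcoma, 10 had a WT peak (52.6%) and 9 one in each mutant list, among them BMP2 (WT fold enrichment 20.1), RUNX2 (19.96) and SP7 (18.1). Of 20 germline genes, 10 had one in each list, led in WT by ZCWPW1 (64.3), STAG3 (47.5), MAEL (33.6) and TEX14 (25.3), and each of these 4 peaks also lay at an end of another gene. These shares were not tested against those of the members.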

How the data were processed

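The authors deposited 1 narrowPeak list for each MYC form, without header. The submitters' processing notes name MACS2, Bowtie2, cutadapt, Picard and SAMtools, and hg38, hg19 and mm10 as builds, with no versions or roles. Pooling of replicates, the control library and the use of mouse reads are not given in the sources used here. The values used as deposited are the fold enrichment (a linear ratio at the summit) and the −log10 q. Positions were read as hg38 and are printed counting from 1. Depth is unknown. Columns of other samples numbered 0.

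Genes came from the RefSeq table (GRCh38.p14), which gives outer ends without exons; strand was taken from the RefSeq promoter table where it had an entry. Overlap means at least 1 bp. With 1 list per form no test was run. The members, gene lists and alternatives were chosen with earlier results of these data known. All members were to be named, and of each other list the 4 strongest in WT. Alternatives were windows of 1000 and 10000 bp, a −log10 q of at least 10, lists of equal length, ranks by −log10 q, leaving out peaks at other genes' ends, an overlap of 50% of both peaks and summits within 100 bp. The counting was tested on simulated data. The tools were matplotlib 3.10.9, SciPy 1.17.1, NumPy 2.4.6 and pandas 2.3.3 under Python 3.11.15.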

Additional observations from a re-analysis of the deposited data

How the results depend on the processing

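No paired analysis was possible because the peak lists do not separate replicates. Counting only peaks within 1000 bp of a gene end left 12 members in WT in place of 19, 11 in 7A in place of 17, and 11 in place of 17 with a peak in both WT and 7A; the members without an end peak in WT were CYP2E1, GFAP, LGR5, MBP, NPHS1, UMOD and VIL1, by construction of that rule. The other counts of members, with a peak in 3A, in WT and 3A, or in all 3 lists, were within 1.5 times of those reported under each alternative run, as were those of overlapped WT peaks. The median position of the members' strongest peak ranged over the alternatives from the top 9.20% to 21.7% in WT, 23.9% to 43.7% in 3A and 12.5% to 35.4% in 7A. With peaks at another gene's end left out, 17, 17 and 15 members had a peak in WT, 3A and 7A. CD4, SFTPC and APOA2, the last with a peak in 3A alone before, then had none in any list. Cutting every list to the shortest gave 15, 18 and 17; CD4, CYP2E1, MYOD1 and VIL1 then had none in WT, and APOA2 and KRT5 none in 3A. Ranked by −log10 q, the 56 positions of single members shifted by a median of 7.03 points and at most 26.9 (CDX2 in 7A), and with lists of equal length 50 positions shifted by a median of 1.76 and at most 19.4 (GFAP in WT). The largest shift was with the window of 10000 bp, at 67.8 points (CYP2E1 in WT), although the median shift there was 0. In that window GFAP in WT moved from the top 65.2% to 9.52%. Leaving out MBP was chosen after seeing the data; the member peaks per Mb were then 23.04 in WT and 3A and 18.3 in 7A, against 27.5, 25.4 and 21.1. Depth and replicate spread cannot be read from the lists, so an absent peak says only that none passed the authors' threshold.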
